A study of Homo sapiens with 12 samples.

Results

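The human riboflavin transporters are encoded by SLC52A1, SLC52A2 and SLC52A3, and their mRNAs were followed here across the conditions of a study on RNF113A and Cisplatin. The members were taken by gene symbol, and all 3 were found among the 26334 genes counted. SLC52A1 brought the family into view, because upon Cisplatin it had the largest increase among the better expressed genes of these same libraries whose treated and untreated values did not overlap. The Cisplatin values of the family are therefore given as a description with no test, and for its members only the effect of RNF113A depletion is tested. The cells were A549, a human lung adenocarcinoma line, infected with lentiviruses for a control shRNA, called shControl, or for shRNF113A, which targets RNF113A. Both lines were selected with 1 µg/ml puromycin for 4 days. They were left untreated or received 25 µg/ml Cisplatin, a DNA-crosslinking drug, for 20 h. That dose is the one in the sample labels, while the methods of the study give Cisplatin in µM, so its unit is uncertain. The 4 resulting conditions had 3 replicates each, which made 12 libraries of polyadenylated RNA from whole cultures. In such bulk RNA, fewer cells that express a gene and less RNA per cell cannot be told apart.

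Riboflavin, or vitamin B2, is not made by human cells and is taken up through the transporters of this family. SLC52A1 encodes RFVT1, SLC52A2 encodes RFVT2 and SLC52A3 encodes RFVT3, the carrier of the apical membrane of the gut epithelium. Inherited defects of SLC52A2 and SLC52A3 cause a childhood motor neuron disease that responds to riboflavin. Inside the cell, riboflavin kinase (RFK) forms FMN and FAD synthase (FLAD1) forms FAD, the cofactors of the flavoenzymes. RNF113A is a subunit of the spliceosome, so the structure of the transporter genes bears on how their transcripts were read.

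SLC52A1 (ENSG00000132517.10) lies at chr17:4935895-4955304 on the minus strand of hg19, and SLC52A3 (ENSG00000101276.10) at chr20:740724-749131, also on the minus strand. Their canonical transcripts have 5 exons each and coding lengths of 1344 and 1407 nt. The last pair of coding exons measured 124 and 210 nt in every member of the family. SLC52A1 is compact in its coding part, where introns of 118, 94 and 91 nt separate the 4 coding exons. Introns 1 and 2 are shown because their retention is described further on, and intron 3, for which no retention is listed, is shown beside them for comparison. They are read from the reference genome GRCh37, 5′ to 3′ on the strand of the gene, and capitals mark the first and last 2 bases.
SLC52A1 intron 1 (chr17:4937654-4937771): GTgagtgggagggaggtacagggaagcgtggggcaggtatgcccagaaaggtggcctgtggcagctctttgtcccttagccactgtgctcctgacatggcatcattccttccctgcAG
SLC52A1 intron 2 (chr17:4936680-4936773): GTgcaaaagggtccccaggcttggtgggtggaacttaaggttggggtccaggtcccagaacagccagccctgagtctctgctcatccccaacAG
SLC52A1 intron 3 (chr17:4936465-4936555): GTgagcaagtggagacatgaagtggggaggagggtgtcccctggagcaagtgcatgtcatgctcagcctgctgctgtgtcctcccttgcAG

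All 3 introns start with GT and end with AG, and none has a length that is a multiple of 3. Kept in the mRNA, intron 1 would shift the frame to a stop codon downstream of the intron, after 167 of the 447 codons of the full reading frame. Intron 2 would bring a stop codon inside the intron, after 360 codons. Intron 3 would leave no stop codon in frame up to the end of the last coding exon. The reference annotation (Gencode v44 on GRCh37) lists 1 transcript of the type retained_intron for intron 1 and 1 for intron 2.

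SLC52A3 differs from SLC52A1 in its last intron, intron 3 at chr20:741883-742344, which has 462 nt, a multiple of 3. An annotated protein-coding transcript keeps it, and its reading frame ends early in the intron. The run shown spans the last 9 bases of the exon and the start of the intron up to that stop codon, with the first 2 bases of the intron and the stop codon in capitals.
SLC52A3 start of intron 3 (chr20:742294-742353): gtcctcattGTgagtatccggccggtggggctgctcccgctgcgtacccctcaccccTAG

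In this form the reading frame has 415 codons in place of 468, and the 210 nt of the last coding exon are not translated. SLC52A1 and SLC52A3 shared 60.3% of the aligned bases of their coding sequences. The closest pair in the family was SLC52A1 and SLC52A2, with 87.3% identity. Their transcripts shared no run as long as a read of 73 nt, the longest being 39 nt, so a whole read could not match both without a mismatch.

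The libraries held 33859097 to 56071514 read pairs, of which 26220526 to 45721152 were counted on the strand of a gene, and the Cisplatin-treated shRNF113A libraries were the 3 smallest. The targeted gene had 19.5 to 20.3 CPM (counts scaled to a common library size) in untreated shControl libraries and 15.3 to 16.8 CPM in untreated shRNF113A libraries. It fell by 0.31 on the log2 scale (standard error 0.09) with an adjusted p of 0.0247 by the quasi-likelihood test of edgeR. With Cisplatin the ranges of RNF113A overlapped, at 27.7 to 31.5 CPM and 24.3 to 29.9 CPM (log2 fold change −0.14, standard error 0.09, adjusted p = 0.233). The shRNF113A level was thus 19.5% lower without and 9.20% lower with Cisplatin, the latter not past the test. The mRNA so shows little of the knockdown that the labels state. The study examined RNF113A protein in depleted A549 cells by western blot, and these counts do not measure protein. Groups are named by their labels throughout, and depletion stands for shRNF113A against shControl.

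The 4 epithelial markers KRT8, KRT18, EPCAM and CDH1 summed to 7214 to 12009 CPM in shControl and 12525 to 13828 CPM in shRNF113A libraries without the drug. With Cisplatin the sums were 3586 to 5191 and 5403 to 6016 CPM. These marker sums, here and below, were scaled by the total counts of each library alone, unlike the CPM of the transporters and RNF113A. On that scale the shRNF113A libraries were higher without overlap at both treatments. Whether the gaps hold with the other scaling was not tested. Upon depletion EPCAM rose by 3.16 on the log2 scale (adjusted p = 2.3e-06 by edgeR) and CDH1 fell by 0.44 (adjusted p = 0.00967), while KRT8 and KRT18 had 0.33 and 0.30 (adjusted p = 0.0720 and 0.0698). Of the 4 alveolar markers, SFTPC and SFTPB, which define alveolar type II cells, had at most 5 and 1 counts in any library. NAPSA had 56 to 139 counts and rose upon depletion by 0.80 (adjusted p = 0.000321 by edgeR). NKX2-1 had 2 to 20 counts and an interaction of 2.15 (adjusted p = 0.0251 by edgeR). Upon depletion NKX2-1 fell by 1.90 on the log2 scale in untreated cells (adjusted p = 0.00240) and had 0.24 with Cisplatin (adjusted p = 0.502). The 4 summed to 1.73 to 2.64 CPM in shControl and 2.71 to 3.42 CPM in shRNF113A libraries without the drug, and to 2.64 to 3.15 and 4.27 to 5.31 CPM with it. Of the 6 markers of blood, endothelial and stromal cells only CD14 and COL1A1 passed the filter on low counts. The list summed to 7.99 to 39.8 CPM in shControl and 7.10 to 9.16 CPM in shRNF113A libraries without the drug. With Cisplatin the sums of this list were 7.80 to 16.6 and 7.37 to 9.19 CPM. Upon depletion COL1A1 fell by 1.16 on the log2 scale (adjusted p = 0.0360 by edgeR) and CD14 had 0.08 (adjusted p = 0.773). The part of these marker differences in the values below was not tested.

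SLC52A1 was nearly silent in untreated cells and became a well expressed gene upon Cisplatin. The shControl libraries had 5, 16 and 14 counts untreated and 1404, 2471 and 2258 counts with Cisplatin. The shRNF113A libraries had 24, 18 and 20 counts untreated and 1034, 1042 and 908 counts with Cisplatin. No library of one treatment came near those of the other, in either line.

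**Figure D1:**
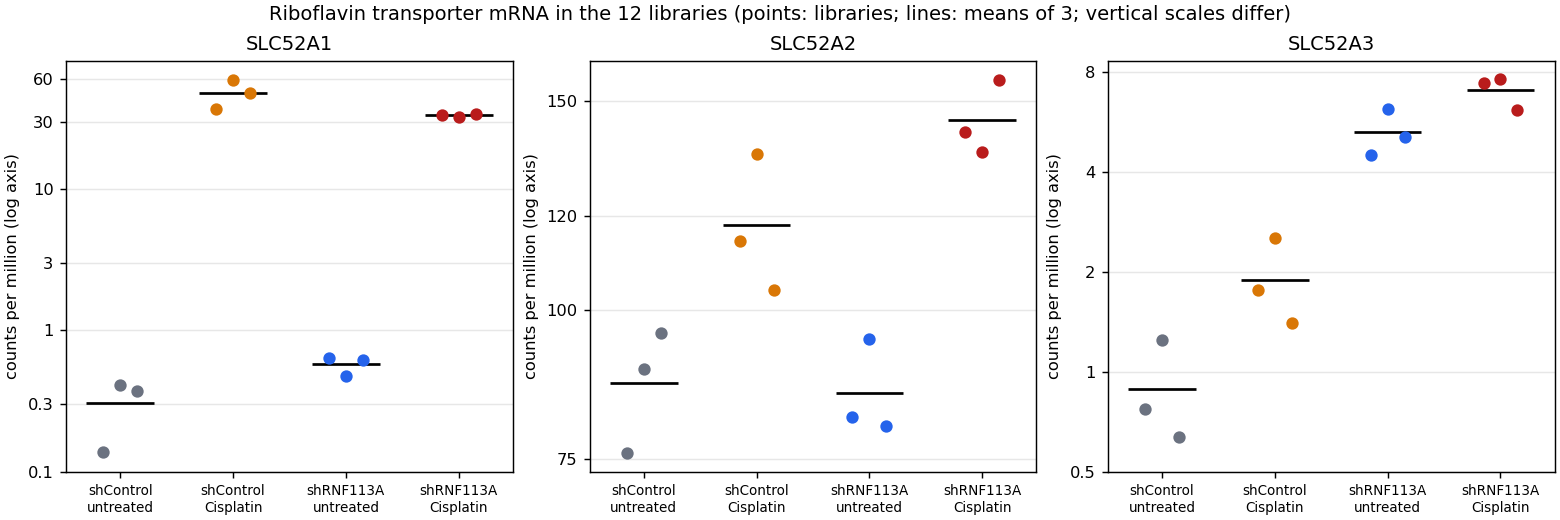
CPM of SLC52A1, SLC52A2 and SLC52A3 (log axes, each with its own range) in the 12 libraries, grouped by shRNA and treatment, with points for libraries and lines for means of 3. SLC52A1 separates by treatment, from at most 0.64 CPM untreated to at least 32.2 CPM with Cisplatin. SLC52A2 separates by treatment by a small margin, from at most 95.6 to at least 103.9 CPM, and SLC52A3 separates by shRNA.

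Scaled for library size by TMM, SLC52A1 stood at 0.31 ± 0.15 CPM (SD, n = 3) in untreated shControl cells and at 48.1 ± 11.3 CPM (SD, n = 3) in Cisplatin-treated ones. In shRNF113A cells it stood at 0.57 ± 0.09 CPM untreated and at 33.2 ± 0.90 CPM with Cisplatin (SD, n = 3 each). The fitted log2 fold change upon Cisplatin was 7.27 (standard error 0.26) in shControl cells and 5.85 (standard error 0.24) in shRNF113A cells, which is 154-fold and 57.6-fold. Over both lines it was 6.50 (standard error 0.25), the 10th highest of the 15352 genes that passed the filter on low counts. SLC52A1 was the only member past 2-fold in that contrast, beside 10.3% of all genes tested that were called higher (adjusted p under 0.05 and at least 2-fold). This contrast chose the gene, so nothing is read from that count. The untreated level rests on few reads, and leaving out the shControl replicate with 5 counts moved the value in shControl cells to 6.94.

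The difference in SLC52A1 upon depletion of RNF113A did not have the same sign at the 2 treatments. In untreated cells every shRNF113A library was above every shControl library, and the log2 fold change was 0.88 (standard error 0.36), which did not pass the test (adjusted p = 0.0872 by edgeR). In Cisplatin-treated cells every shRNF113A library was below every shControl library, and SLC52A1 fell by 0.54 on the log2 scale (standard error 0.17, adjusted p = 0.0247 by edgeR), to 0.69 of the shControl level. Among all genes 42.9% passed an adjusted p under 0.05 in that contrast. This call was lost when shControl replicate 2 with Cisplatin was left out (log2 fold change −0.40, adjusted p = 0.0547), and likewise without shRNF113A replicate 1, 2 or 3 with Cisplatin (adjusted p = 0.0506, 0.0529 and 0.0632). The difference between the effects of depletion at the 2 treatments, tested as the interaction, was −1.42 (standard error 0.40, adjusted p = 0.0649 by edgeR). The same value is the difference between the Cisplatin fold changes of the 2 lines. Cisplatin values chose the gene, so the p-values of its interaction are not independent of that choice, and nothing is concluded from them. The interaction missed the threshold, which 4.25% of all genes passed. It passed with DESeq2 in place of edgeR (−1.46, adjusted p = 0.00599), without untreated shControl replicate 2 (−1.68, adjusted p = 0.0411) and without shControl replicate 1 with Cisplatin (−1.63, adjusted p = 0.0390). Averaged over both treatments, the depletion effect was −0.24 (standard error 0.22, adjusted p = 0.385).

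**Figure D2:**
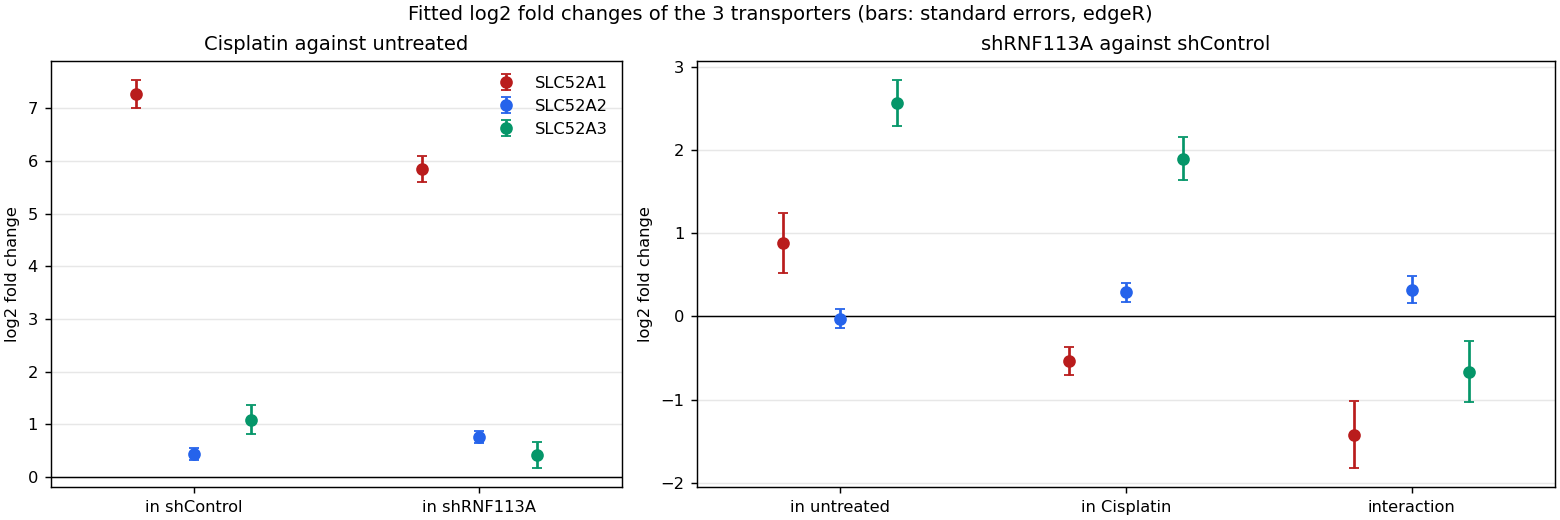
Fitted log2 fold changes of the 3 transporters, with standard errors as bars. The left panel gives Cisplatin against untreated in each line, and the right panel gives shRNF113A against shControl at each treatment and their difference (interaction). SLC52A1 leads the left panel at 7.27 and 5.85, and SLC52A3 leads the right panel at 2.56 and 1.90.

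SLC52A3 was the member that rose upon depletion. Untreated, the shControl libraries had 28, 49 and 24 counts and the shRNF113A libraries 170, 236 and 166. With Cisplatin, the shControl libraries had 67, 105 and 66 counts and the shRNF113A libraries 230, 247 and 164. The lowest shRNF113A library was above the highest shControl library at either treatment. Of the epithelial markers above, EPCAM rose upon depletion, CDH1 fell, and KRT8 and KRT18 did not pass the test.

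In CPM, SLC52A3 went from 0.89 ± 0.32 in untreated shControl cells to 5.27 ± 0.86 in untreated shRNF113A cells (SD, n = 3 each), which is 2.56 higher on the log2 scale (standard error 0.28) or 5.91-fold, at an adjusted p of 4.6e-05 by edgeR. With Cisplatin it went from 1.90 ± 0.57 to 7.07 ± 0.81 CPM (SD, n = 3 each), which is 1.90 higher on the log2 scale (standard error 0.26) or 3.73-fold, at an adjusted p of 0.00017 by edgeR. The interaction of −0.66 did not pass the test (standard error 0.37, adjusted p = 0.327 by edgeR). Averaged over the treatments, the depletion effect was 2.21 (standard error 0.21, adjusted p = 3.9e-06 by edgeR), the 140th highest of all genes tested. SLC52A3 was called in all 3 of these depletion contrasts and was the only member called, where 11.0% of genes were called over both treatments, 8.66% in untreated and 12.3% in Cisplatin-treated cells. The depletion effect over both treatments stayed between 2.09 and 2.35 whichever library was left out.

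The Cisplatin differences of SLC52A3 were smaller, with log2 values of 1.09 (standard error 0.28) in shControl cells and 0.42 (standard error 0.24) in shRNF113A cells. The shControl libraries did not overlap between treatments, with 1.25 CPM as the highest untreated value and 1.40 CPM as the lowest treated one. In shRNF113A cells they overlapped narrowly, at 6.20 and 6.14 CPM. From the lowest, the order of its levels was shControl untreated, shControl with Cisplatin, shRNF113A untreated and shRNF113A with Cisplatin, and only the last pair overlapped.

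SLC52A2 (ENSG00000185803.4), at chr8:145577795-145584932 on the plus strand, was the abundant member. It had 2744, 3504 and 3607 counts in untreated shControl libraries and 3074, 3600 and 2597 in untreated shRNF113A libraries. With Cisplatin it had 4345, 5620 and 4884 counts in shControl libraries and 4367, 4391 and 4173 in shRNF113A libraries. Its locus overlaps FBXL6 and TMEM249 on the opposite strand, and the counts used here are those of its own strand.

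The untreated lines overlapped in SLC52A2, at 86.9 ± 10.1 CPM in shControl and 85.2 ± 8.06 CPM in shRNF113A cells (SD, n = 3 each), and the log2 fold change of depletion was −0.03 (standard error 0.12, adjusted p = 0.879 by edgeR). With Cisplatin the levels were 118 ± 15.9 CPM and 144 ± 10.6 CPM (SD, n = 3 each). The 2 ranges met at 135.2 and 135.7 CPM without overlap, and the log2 fold change of 0.29 (standard error 0.11) missed the test (adjusted p = 0.0568 by edgeR). Without shControl replicate 3 with Cisplatin it was 0.15, and it passed without replicate 2 of that group (0.36, adjusted p = 0.0258) and without untreated shControl replicate 1 or 2 (adjusted p = 0.0426 and 0.0473). The average depletion effect was 0.13 (standard error 0.09, adjusted p = 0.245) and the interaction 0.32 (standard error 0.16, adjusted p = 0.280). Upon Cisplatin the fitted values were 0.44 (standard error 0.12) in shControl and 0.76 (standard error 0.12) in shRNF113A cells, and treated and untreated libraries did not overlap in either line.

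The make-up of the family was compared per length, as CPM per kb of the exons of Gencode v19 (3722 nt for SLC52A1, 2394 nt for SLC52A2 and 3060 nt for SLC52A3). In untreated shControl cells SLC52A2 made up 99.0 ± 0.32% of the summed level, SLC52A3 0.80 ± 0.28% and SLC52A1 0.22 ± 0.09% (SD, n = 3 each). In untreated shRNF113A cells SLC52A3 had 4.58 ± 0.39% and SLC52A1 0.42 ± 0.10%. Across the untreated libraries of both lines SLC52A2 held 94.8 to 99.2% of the family.

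With Cisplatin SLC52A1 made up 20.5 ± 3.06% of the family in shControl cells and 12.5 ± 0.46% in shRNF113A cells (SD, n = 3 each), and SLC52A2 remained the largest at 78.5 ± 3.02% and 84.3 ± 1.01%. SLC52A3 made up 0.97 ± 0.16% and 3.25 ± 0.55%. With the length of the canonical transcript, a choice made after seeing the data, the SLC52A1 shares were 26.7% and 16.7%. The summed level of the 3 mRNAs was 36.7 ± 4.26 CPM per kb in untreated shControl cells and 37.5 ± 3.60 in untreated shRNF113A cells. With Cisplatin the sums were 62.8 ± 9.12 and 71.5 ± 4.38 CPM per kb (SD, n = 3 each), and no treated library reached down to the untreated ones. The per-length level of SLC52A1 was ranked among the 13417 protein-coding genes with a length that passed the filter on low counts. In shControl cells it moved from percentile 4.36 to percentile 64.4 upon Cisplatin.

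**Figure D3:**
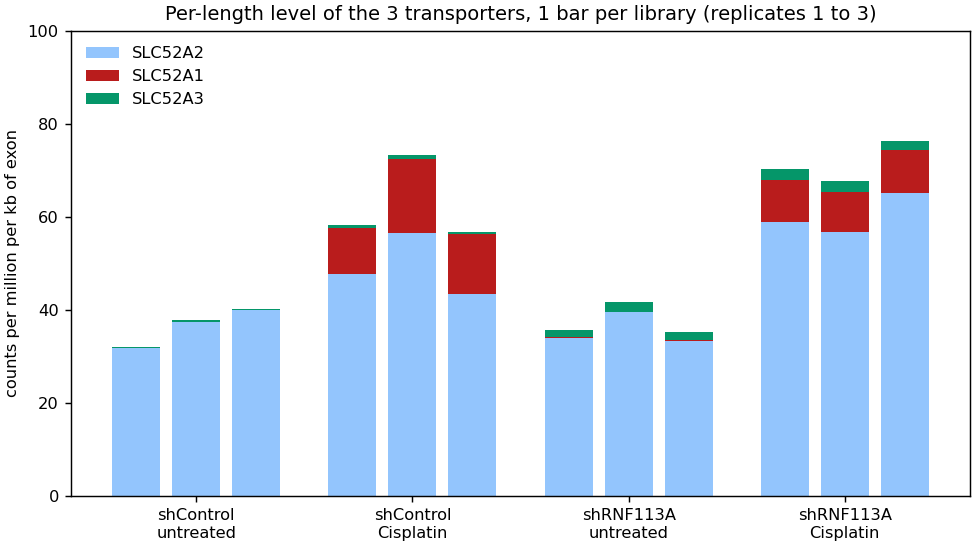
CPM per kb of exon of the 3 transporters, stacked, with 1 bar for each of the 12 libraries in the order of replicates 1 to 3 within each condition. The bars are almost wholly SLC52A2 without Cisplatin, while SLC52A1 adds 8.65 to 16.0 CPM per kb in the treated libraries.

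Because RNF113A acts in splicing, the splicing of the transporters was followed in the inclusion and skipping reads of the rMATS tables. These list 26 member events in the depletion comparisons, counting an event once per comparison, of which 22 had at least 10 reads in every library. The events tested were 18 of SLC52A2, 3 of SLC52A1 and 1 of SLC52A3. None was called by edgeR at an adjusted p under 0.05 with mean inclusion levels at least 20 points apart, where 0.132% of all events of these categories were called. Without adjustment 3 had a p under 0.05 by edgeR. The share of all events at that level was not taken, so nothing is read from that count. The largest difference was 10.6 points, for intron 2 of SLC52A1.

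The reads of SLC52A1 were enough only with Cisplatin. Intron 2 had inclusion levels of 7.52, 6.81 and 14.0% in the shControl libraries and 12.9, 30.3 and 17.0% in the shRNF113A libraries, from 46 to 117 reads a library. The 2 groups overlapped, and the difference in the log2 odds of inclusion was 1.18 (standard error 0.55, adjusted p = 0.101 by edgeR). Leaving out single libraries, the difference ranged from 5.51 to 14.2 points. Without the shRNF113A library at 30.3% it was 5.51 points (adjusted p = 0.438), and without the third listed shControl library it passed an adjusted p under 0.05 (12.9 points, adjusted p = 0.0281). Intron 1 was kept less often, at 3.69, 1.81 and 4.13% in shControl and 5.34, 5.94 and 6.13% in shRNF113A libraries. These ranges did not overlap, with a log2 odds difference of 0.95 (standard error 0.57, adjusted p = 0.201 by edgeR). Over all retained introns of this comparison 26.0% passed an adjusted p under 0.05. The exon of 124 nt was included at 90.8 ± 4.58% in shControl and 89.1 ± 2.29% in shRNF113A libraries (SD, n = 3 each). Its skipping would shift the frame to a stop codon after 350 codons.

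Intron 3 of SLC52A3, shown above from its start to the stop codon, was the more frequent form in every shRNF113A library. In untreated shRNF113A libraries there were 47, 61 and 38 reads with the intron and 1 read without it in each, which gives length-corrected levels of 86.4, 89.2 and 83.7%. With Cisplatin the same line had 44, 56 and 24 reads with and 5, 6 and 1 without, or 54.3, 55.7 and 76.4%. The level was 24.3 points lower with Cisplatin, and the groups did not overlap. It rests on 3 and 12 spliced reads in all. The untreated shControl libraries had 2, 6 and 7 reads with the intron and 0, 3 and 0 without, too few for a test of depletion. The levels in Cisplatin-treated shControl libraries were 59.7, 71.9 and 48.6%, which overlapped with the treated shRNF113A libraries.

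The reads in intron 3 outnumbered those in the other introns of SLC52A3 per length. In untreated shRNF113A libraries intron 3 had 71.2 to 114 reads per kb, beside 6.73 to 9.54 read pairs per kb over the 5348 nt of the gene outside any annotated exon. In Cisplatin-treated shRNF113A libraries the values were 44.9 to 105 and 2.80 to 5.42. The read pairs per kb include pairs that lay only partly outside the exons, and both kinds were counted with different tools. Only their rough size can therefore be set side by side.

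**Figure D4:**
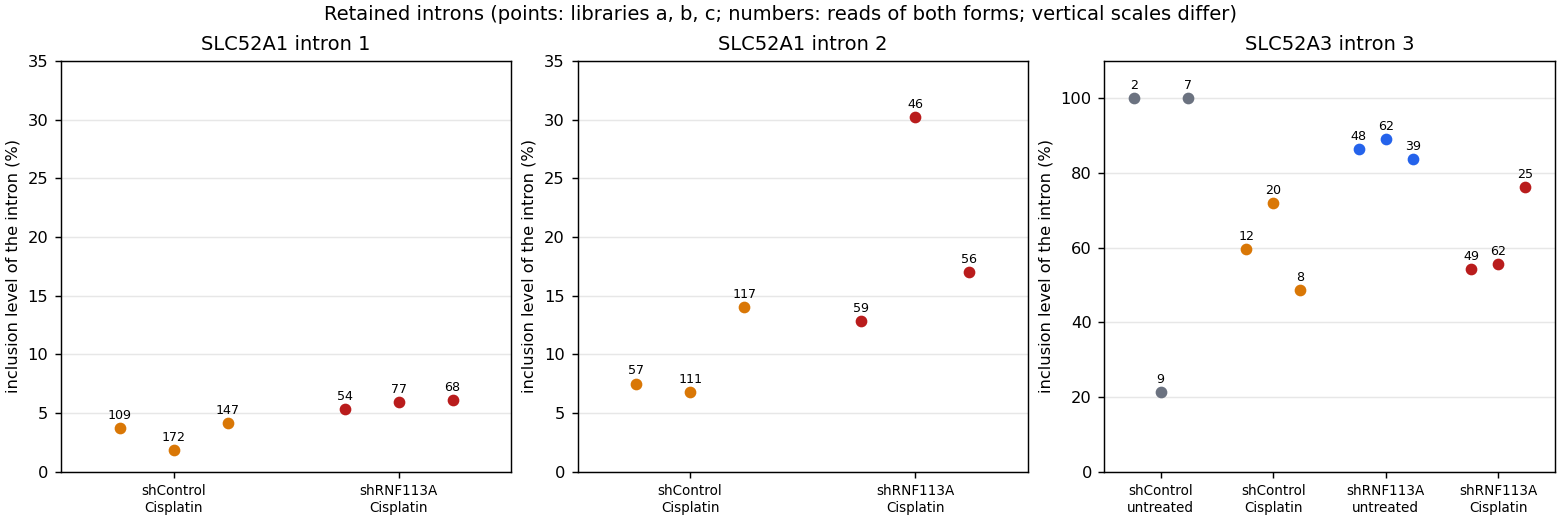
Inclusion level (%) of SLC52A1 introns 1 and 2 in Cisplatin-treated libraries and of SLC52A3 intron 3 in all conditions, with 1 point per library and the number of reads of both forms above it. Intron 2 of SLC52A1 reaches 30.3% in 1 shRNF113A library, and intron 3 of SLC52A3 lies at 83.7 to 89.2% in untreated shRNF113A libraries.

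SLC52A2 was spliced almost uniformly. Its exons of 124 and 871 nt had mean inclusion levels of 99.2% or more in every condition. The same held for the first 125 nt of the larger exon, which are also listed as an exon. The alternative donor site most used, in the exon before the start codon, left the main form at 92.7 ± 3.13% in untreated shControl and 89.9 ± 0.78% in untreated shRNF113A libraries (SD, n = 3 each, adjusted p = 0.766 by edgeR). A stretch of 424 nt inside its large coding exon was spliced out by 2 reads in each Cisplatin-treated shRNF113A library and by none in the shControl ones, against over 2000 reads that kept it. Without the drug the order was the other way, with 1, 2 and 1 such reads in the shControl and 0, 1 and 0 in the shRNF113A libraries (0.41 points, adjusted p = 0.437 by edgeR). The difference of −0.66 points with Cisplatin had an adjusted p of 0.0157 by edgeR and lay under the limit of 20 points. Without the first or second listed shControl library the adjusted p was 0.0563 or 0.0652.

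Intronic reads, which lay at least partly outside the annotated exons, gave a second measure. The ratio of intronic to exonic reads was compared within each library, for 11488 genes with both kinds in every library. Depletion shifted the median gene by 0.47 on the log2 scale in untreated and by 0.96 in Cisplatin-treated cells. The transporters did not all share that shift.

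SLC52A2 rose in this ratio. Intronic reads were 14, 19 and 25 in untreated shControl and 31, 56 and 43 in untreated shRNF113A libraries, or 0.58 ± 0.10% and 1.41 ± 0.35% of its reads (SD, n = 3 each). The log2 ratio was 1.26 higher (standard error 0.30, adjusted p = 0.00940 by edgeR), 0.79 above the median gene, and 28.4% of all genes passed the test. With Cisplatin there were 41, 27 and 54 intronic reads in shControl and 71, 62 and 69 in shRNF113A libraries. The log2 ratio was 0.94 higher (standard error 0.26, adjusted p = 0.00279), close to the median gene in a contrast that 81.7% of genes passed. The interaction was −0.32 (standard error 0.40, adjusted p = 0.593), where 3.53% of genes passed. The untreated call was lost without shRNF113A replicate 2 (1.16, adjusted p = 0.0589).

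SLC52A3 did not follow. It had 10, 8 and 7 intronic reads in untreated shControl and 36, 51 and 38 in untreated shRNF113A libraries, which was 21.7 ± 5.88% and 18.4 ± 0.47% of its reads (SD, n = 3 each). The log2 difference of its ratio upon depletion was −0.25 (standard error 0.39, adjusted p = 0.623 by edgeR) without the drug and −0.28 (standard error 0.37, adjusted p = 0.504) with it. Set against the median gene these values were −0.72 and −1.24. Without shControl replicate 3 with Cisplatin the second difference was 0.016 in place of −0.28. Upon Cisplatin the difference in its log2 ratio was −1.07 (standard error 0.43) in shControl and −1.10 (standard error 0.28) in shRNF113A cells. Intron 3 does not enter these values, since Gencode v19 lists it as exon in the transcript that keeps it.

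SLC52A1 had no intronic read in untreated shControl libraries and 2, 1 and 2 in untreated shRNF113A ones, so it did not enter that fit. With Cisplatin there were 44, 65 and 78 intronic reads in shControl and 41, 55 and 51 in shRNF113A libraries, or 3.08 ± 0.42% and 4.95 ± 0.87% of its reads (SD, n = 3 each). In a fit of the 6 Cisplatin-treated libraries alone, chosen after seeing the data, its log2 ratio was 0.71 higher upon depletion (standard error 0.28, adjusted p = 0.0257 by edgeR), which was −0.25 from the median gene in a contrast that 74.8% of genes passed.

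**Figure D5:**
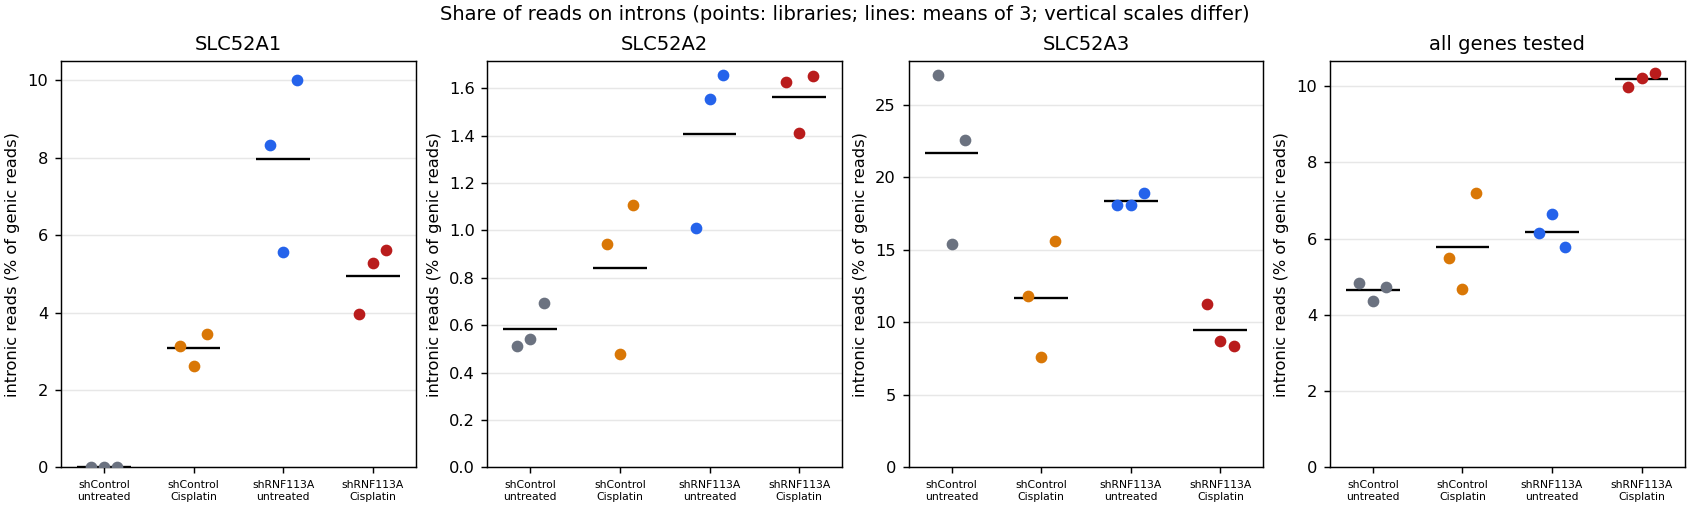
Intronic reads as a percent of all reads of the gene in each library (points) with means of 3 (lines), for the 3 transporters and summed over the 11488 genes tested. The sum over all genes is highest in shRNF113A libraries with Cisplatin, at 9.99 to 10.4%, while SLC52A3 is lowest there, at 9.44% on average.

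The genes most like each member over the 12 libraries were named by the root mean square difference of log2 CPM, each centred on its own mean. For SLC52A1 these were PVRL4 (0.52), PLXNB3 (0.70), RRAD (0.75), GRIN2C (0.78) and ARC (0.81), and no gene came within 0.5. PVRL4, now called NECTIN4, encodes a cell adhesion protein, PLXNB3 a semaphorin receptor, RRAD a small GTPase, GRIN2C a glutamate receptor subunit and ARC an immediate early protein. Their Cisplatin log2 fold changes in shControl cells were 5.90 to 6.16, below the 7.27 of SLC52A1. In shRNF113A cells these values were lower too, at 5.25 to 5.58, where SLC52A1 had 5.85. Upon depletion the 5 genes had −1.25 to −0.11 in Cisplatin-treated cells, where SLC52A1 had −0.54. In untreated cells they had −0.68 to 0.58, where SLC52A1 had 0.88. For SLC52A3 the nearest were HYAL1 (0.31), a hyaluronidase, TMPRSS3 (0.32), a serine protease, and SPINT1 (0.35), an inhibitor of serine proteases. TMPRSS3 averaged 0.18 CPM over the libraries and rests on few reads. Their log2 fold changes of depletion were 1.76, 4.84 and 2.13 in untreated cells, where SLC52A3 had 2.56. In Cisplatin-treated cells they were 1.92, 2.08 and 1.97, where SLC52A3 had 1.90. Upon Cisplatin TMPRSS3 had 2.61 in shControl and −0.16 in shRNF113A cells, unlike the 1.09 and 0.42 of SLC52A3. SLC52A2 had 2788 genes within 0.3, led by SPATA2, FEM1A and TMEM115, so its profile was a common one.

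Of the 9 genes of flavin cofactor synthesis and traffic, 8 passed the filter on low counts. None was called upon Cisplatin by edgeR at 2-fold, where 21.5% of all genes were called in either direction. At an adjusted p under 0.05 alone 4 rose and 2 fell, a share close to the 66.8% of all genes that passed, and the median log2 fold change was 0.27, beside 0.03 over all genes. RFK rose by 0.27 (adjusted p = 0.0208) and FLAD1 by 0.46 (adjusted p = 1.1e-05), while SLC25A32, the mitochondrial carrier for folate and FAD, rose by 0.27 (adjusted p = 0.00569). BLVRB, a flavin reductase, rose by 0.31 (adjusted p = 0.00231). ABCG2, an efflux pump that also carries riboflavin, fell by 0.56 on the log2 scale (adjusted p = 0.0104) and ENPP1 fell by 0.87 (adjusted p = 0.000592).

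Upon depletion, 2 of the 8 were called, beside 11.0% of all genes, and both are ectoenzymes that can act on extracellular nucleotides. NT5E rose by 1.73 (standard error 0.15, adjusted p = 2.3e-06) and ENPP1 fell by 1.38 on the log2 scale (standard error 0.18, adjusted p = 5e-05). At an adjusted p under 0.05 alone, which 47.5% of all genes passed, FLAD1 rose by 0.20 (adjusted p = 0.0138), BLVRB fell by 0.51 (adjusted p = 0.000132) and ABCG2 fell by 0.54 (adjusted p = 0.0185). RFK and SLC25A32 had values of −0.07 (adjusted p = 0.531) and −0.10 (adjusted p = 0.30). RFK was the 1 gene of this list that passed the interaction at an adjusted p under 0.05 (−0.53, standard error 0.11, adjusted p = 0.0251), with 90.0 CPM in untreated shControl cells, 129.8 CPM with Cisplatin and 102.7 CPM in shRNF113A cells at either treatment. ACP5 had 0 to 33 counts (depletion −0.44, adjusted p = 0.635), and ENPP3 had at most 5 counts and was not tested.

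Among flavoenzymes, the users of FMN and FAD, 86 of 97 passed the filter, and 16 (18.6%) were called upon Cisplatin, 10 higher and 6 lower, close to the 21.5% of all genes called. The median log2 fold change was −0.12, beside 0.03 over all genes. The largest rises were those of FDXR, the mitochondrial adrenodoxin reductase (3.19, standard error 0.12), PRODH, proline dehydrogenase (1.72, standard error 0.21), XDH, xanthine dehydrogenase (1.70, standard error 0.15), and AOX1, aldehyde oxidase (1.64, standard error 0.32). The largest falls were those of DPYD, which degrades pyrimidines (−3.77, standard error 0.19), RNLS (−2.63, standard error 0.25), NOS1 (−1.50, standard error 0.54) and STEAP4 (−1.49, standard error 0.56). NOS1 and STEAP4 rest on at most 83 and 13 counts.

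Depletion called 5 (5.81%) of the 86 flavoenzymes, 3 higher and 2 lower, beside 11.0% of all genes. XDH (1.76, standard error 0.15), STEAP4 (1.57, standard error 0.55) and SMOX, spermine oxidase (1.14, standard error 0.25), rose. NOS1 (−1.86, standard error 0.55) and MICAL2 (−1.23, standard error 0.07) fell. PRODH was the 1 flavoenzyme called in the interaction (−1.11, standard error 0.28, adjusted p = 0.0439 by edgeR), a share of 1.16% beside 1.28% of all genes.

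All 14 transporters and carriers of other vitamins passed the filter, and 3 (21.4%) were called upon Cisplatin, the same share as the 21.5% of all genes. The 3 were lower, SLC23A2 and SLC23A1, which carry vitamin C, and LMBRD1, which exports vitamin B12 from lysosomes (−1.23, −1.01 and −1.08). Upon depletion 2 of the 14 were called, beside 11.0% of all genes. FOLR1 rose by 1.27 from at most 21 counts, and SLC23A1 fell by 2.86 on the log2 scale (standard error 0.39, adjusted p = 7.8e-05).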

How the data were processed

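RNA sequencing libraries of A549 cells were re-analysed from deposited files. The authors prepared stranded mRNA libraries, discarded reads from rRNA, tRNA and the mitochondrion, trimmed the rest to 73 nt, aligned them to hg19 with STAR 2.5.2b and deposited raw counts of read pairs per gene. They also deposited raw HTSeq counts on exons and on whole spans of Gencode v19 protein-coding genes, whose difference was taken as intronic reads, and rMATS tables with inclusion and skipping reads per library. The order of libraries in those tables is not named. Their p-values, FDR and inclusion differences are the authors' own results and were not used.

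Genes were fitted with edgeR 4.0.16 in R 4.3.3 (gene-strand counts, TMM, filterByExpr, quasi-likelihood test, Benjamini-Hochberg adjustment). The model held drug and depletion, with their interaction for effects within a condition. Calls needed an adjusted p under 0.05 and a fold of at least 2. Inclusion against skipping reads (at least 10 in every library) and intronic against exonic reads (at least 1 of each) were fitted with a term per library. The edgeR fits of genes, retained introns and intronic ratios were each tried on simulated counts, for a depletion contrast. The other contrasts and the alternative fits were not. DESeq2 1.42.0 was an alternative. Named genes were the members, RNF113A, all synthesis and traffic genes, up to 4 rises and 4 falls of the other lists per main effect, and the genes nearest in profile, 5 for SLC52A1 and 3 for the others. SLC52A1 had at least 10 counts in 11 libraries and the others in 12, and all 3 members passed the filter. Members, lists and tests were chosen with earlier results of these data known. The replicates are described as biological, and p-values cover the spread between them. Equal replicate numbers correlated in their deviations between untreated and treated shControl libraries (r = 0.48, 0.67 and 0.38 over 15352 genes). Between untreated and treated shRNF113A libraries r was 0.15, 0.02 and 0.17. A pairing of shControl libraries rests on these values alone, and the fits given above held no replicate term. Only an alternative fit, the replicate block, gave equal replicate numbers a shared term, over all conditions. Counts have only counting precision at the depth of each library. Sequences came from GRCh37 and Gencode v44 annotation, with Python 3.11.15, Biopython 1.88 and matplotlib 3.10.9.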

Additional observations from a re-analysis of the deposited data

How the results depend on the processing

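Of 413 alternative values of the members' fold changes, 397 were counted as the same, 13 changed side of the threshold and 3 turned in sign. Depletion and interaction values were the same if they kept their direction and their side of an adjusted p of 0.05. Cisplatin values, which have no test, were the same if they moved by less than the SD between replicates. The 3 that turned in sign were SLC52A2 upon depletion in untreated cells. That value was not called and ranged from −0.12 to 0.047 when single libraries were left out. SLC52A1 passed with DESeq2 in the interaction (−1.46) and in untreated cells (0.88), where edgeR gave adjusted p-values of 0.0649 and 0.0872. SLC52A2 upon depletion in Cisplatin-treated cells passed with exonic HTSeq counts (0.32) and with a replicate block (0.30), and the replicate block changed no other call of a member. Leaving out each library in turn, the SLC52A1 interaction ranged from −1.68 to −1.09, SLC52A1 upon depletion with Cisplatin from −0.75 to −0.40, SLC52A2 in the same contrast from 0.15 to 0.36, and the SLC52A2 intronic ratio in untreated cells from 1.14 to 1.46. Genes called for the interaction ranged from 75 to 420, flavoenzymes called upon depletion from 3 to 6, other vitamin transporters from 1 to 2, and synthesis genes called upon Cisplatin from 0 to 1. Requiring at least 10 counts in every library dropped SLC52A1 and tested fewer genes, with 2121 called upon Cisplatin, 824 upon depletion, 789 in untreated and 1103 in Cisplatin-treated cells, of which 3 flavoenzymes and 0 other vitamin transporters upon depletion. With the canonical transcript length the SLC52A1 share of the family was 26.7%, 16.7% and 0.59% in shControl with Cisplatin, shRNF113A with Cisplatin and shRNF113A untreated, and that of SLC52A2 72.4%, 80.0% and 94.6%. All 16 alternative counts of member splicing events called were 0. Leaving out single libraries also turned the sign of values that were never called. The SLC52A3 intronic ratio upon depletion with Cisplatin ranged from −0.61 to 0.016 and its interaction from −0.36 to 0.30. With Cisplatin the inclusion differences in points ranged from −3.21 to 0.93 for the SLC52A1 exon of 124 nt. For SLC52A2 exons listed at 124, 125 and 871 nt they ranged from −0.92 to 0.050, from −0.15 to 0.13 and from −0.22 to 0.090. For the alternative acceptor of SLC52A2 they ranged from −0.10 to 0.088. For the 3 donor pairs of the SLC52A2 exon before the start codon they ranged from −2.87 to 0.075, from −0.24 to 0.52 and from −0.34 to 1.21. For the donor pair of the next exon they ranged from −1.11 to 0.64 with Cisplatin and from −0.61 to 1.03 without. The causes of these changes were not tested. No paired analysis of the splicing tables was possible because they do not name their libraries. The few untreated SLC52A1 reads and spliced SLC52A3 reads limit what these values can show.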
